A study of Mus musculus with 27 samples.

Results

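CAST/EiJ and PWK/PhJ are wild-derived inbred mouse strains, and their 6 samples were set against the 21 samples of 7 other inbred strains, out of 27 samples in all. CAST/EiJ descends from Mus musculus castaneus and PWK/PhJ from Mus musculus musculus, whereas the genomes of the other strains are mostly of Mus musculus domesticus origin. Those were the wild-derived WSB/EiJ and the laboratory strains 129S1/SvImJ, A/J, C57BL/6J, DBA/2J, NOD/ShiLtJ and NZO/HlLtJ. Every strain gave 3 samples of liver hepatocytes from female mice 12 weeks old, with no treatment named in the labels. Reduced representation bisulfite sequencing reads the CpG-rich part of a genome after cutting with MspI, and gives the percentage of unconverted, that is methylated, cytosines at each position. Each of the pair's subspecies was represented by 1 inbred strain, so that ancestry and strain cannot be told apart in these data. The labelled cell type could be checked on few markers: 3 of 12 hepatocyte marker genes had positions listed in all samples within 1 kb of a start, among them Apob at a mean of 18.6% in the pair and 9.20% in the other samples, whereas Alb, the albumin gene, had none. Of other liver cells 3 biliary marker genes could be read, at 20.3 to 71.1% in the pair and 16.1 to 38.5% in the others, 3 of stellate cells, at 0.826 to 9.64% and 0.556 to 10.8%, and 1 of endothelial cells. As means over samples, 6 of these 7 genes were higher in the pair, the exception being Des, and so were the 3 hepatocyte genes. The pair was also higher at 65.4% of all 1 kb tiles tested below. In each of the 7 genes the samples of the groups overlapped, and the part of other cells in the results was not tested. No marker of Kupffer cells or lymphocytes had positions listed in all samples within 1 kb of a start.

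Cytosine methylation in mammals is placed mainly at CpG dinucleotides, by Dnmt3 enzymes that set it and Dnmt1, which copies it at replication. Starts of active genes in CpG islands are usually free of it, while gene bodies and intergenic sequence are mostly methylated, and distal regulatory elements bound by transcription factors often sit between these states. A strain can inherit a difference in methylation through the sequence around a CpG, and a variant can also create or remove the CpG itself.

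Single positions listed in all 27 samples numbered 1692477 of the 5240546 listed at least once, with 2969433 to 3126017 listed per sample of the pair and 2904787 to 3156965 per sample of the others. They were averaged in tiles of 1 kb with at least 5 such positions. A tile was tested when its mean over all samples lay at least 2.5 points from both 0 and 100%, which left 45604 tiles. The pair enters this mean, so a tile under 2.5% in the 7 strains was tested only where the pair was higher. Near 100% the reverse held. Counts of higher and lower tiles include such tiles. Among the tiles named below, those at Bfar, Commd1, Ccdc30, Zfp971 and Mospd3 passed in this way, with means of the 7 strains of 0.555 to 2.46%. A tile is called shared here when limma's moderated test, with Benjamini-Hochberg adjustment over all tiles, gave an adjusted p under 0.05 for each of the 2 strains against the mean of the 7 others, in the same direction, and both strain means also lay at least 10 percentage points beyond the nearest of the 7 strain means. The distance of the nearer of the pair from that nearest strain is called the gap.

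Shared tiles that reached the start of a protein-coding gene allow the sequence to be shown beside its methylation. The 250 bases upstream of 6 such starts are printed 5′ to 3′ on the strand of the gene, from RefSeq on GRCm38.p6, which is the C57BL/6J reference and not the sequence of CAST/EiJ or PWK/PhJ. Capitals mark the bases whose methylation was listed in all 27 samples, either a cytosine or the guanine that pairs with a cytosine of the opposite strand. These 6 were chosen, after their values were seen, because the difference lay within the bases shown: the first 5 were more methylated in the pair, and the last was less methylated. Krtcap3 and Shroom3 also differed within such bases, but their samples overlapped and they are not printed. The lack of overlap at the 6 starts is therefore favoured by their choice.
Iho1, chr9:108431827-108432076, minus strand: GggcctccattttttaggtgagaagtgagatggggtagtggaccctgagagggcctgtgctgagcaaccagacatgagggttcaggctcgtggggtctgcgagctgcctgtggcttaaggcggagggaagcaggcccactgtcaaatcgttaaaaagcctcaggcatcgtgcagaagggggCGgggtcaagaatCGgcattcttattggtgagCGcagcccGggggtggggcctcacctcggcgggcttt
Mcf2l, chr8:12915661-12915910, plus strand: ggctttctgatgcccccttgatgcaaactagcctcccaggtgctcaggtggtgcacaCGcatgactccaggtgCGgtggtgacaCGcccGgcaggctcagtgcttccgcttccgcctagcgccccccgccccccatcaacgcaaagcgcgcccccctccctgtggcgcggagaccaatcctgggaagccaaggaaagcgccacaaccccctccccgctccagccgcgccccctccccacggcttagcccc
Calml4, chr9:62857854-62858103, plus strand: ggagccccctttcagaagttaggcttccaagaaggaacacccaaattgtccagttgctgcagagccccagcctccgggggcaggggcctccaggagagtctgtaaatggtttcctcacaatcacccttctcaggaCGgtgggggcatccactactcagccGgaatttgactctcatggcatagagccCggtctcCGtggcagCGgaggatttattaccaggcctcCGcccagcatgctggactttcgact
Septin9, chr11:117332063-117332312, plus strand: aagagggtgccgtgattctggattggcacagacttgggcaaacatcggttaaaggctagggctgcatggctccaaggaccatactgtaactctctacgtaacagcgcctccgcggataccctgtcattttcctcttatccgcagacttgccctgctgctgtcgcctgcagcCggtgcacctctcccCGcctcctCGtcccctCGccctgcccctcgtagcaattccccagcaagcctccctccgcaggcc
Ldhd, chr8:111630337-111630586, minus strand: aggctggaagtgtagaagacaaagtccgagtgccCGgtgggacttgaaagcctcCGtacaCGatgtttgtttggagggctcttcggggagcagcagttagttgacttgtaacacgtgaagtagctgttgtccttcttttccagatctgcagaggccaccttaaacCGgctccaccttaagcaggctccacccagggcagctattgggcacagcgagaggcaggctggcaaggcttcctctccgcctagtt
1700102P08Rik, chr9:108392584-108392833, plus strand: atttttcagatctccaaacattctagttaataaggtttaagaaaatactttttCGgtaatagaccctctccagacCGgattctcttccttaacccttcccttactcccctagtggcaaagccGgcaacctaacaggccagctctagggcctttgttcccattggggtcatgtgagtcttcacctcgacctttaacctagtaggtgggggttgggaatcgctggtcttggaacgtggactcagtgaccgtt

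Iho1, required for the DNA breaks that start meiotic recombination, was more methylated in all 6 samples of the pair than in any other sample. Over the 8 positions within 250 bases upstream and 50 downstream of its start, the CAST/EiJ samples read 83.7, 88.8 and 89.3%, and PWK/PhJ averaged 94.5% ± 2.82 (SD, n = 3). The 21 other samples ranged from 34.3 to 67.5%, with a median of 46.6%. Mcf2l encodes a guanine nucleotide exchange factor. At 7 positions of its start window the CAST/EiJ samples read 59.5, 62.7 and 62.9%, the PWK/PhJ samples 42.3, 49.7 and 63.8%, and the others 3.22 to 17.1% with a median of 8.14%. All 6 samples of the pair lay above all others, which the choice of these starts favours here and at Iho1. Within the window the 7 strains were highest at 2 adjacent bases, with strain means of 7.47 to 41.4%, where the pair read 72.4 to 94.1%.

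Calml4, a calmodulin-like protein of brush borders, separated the pair into 2 levels above the others. Its 10 start positions read 38.7, 38.9 and 41.3% in CAST/EiJ, 64.9, 67.1 and 69.1% in PWK/PhJ, and 3.99 to 18.95% elsewhere. Septin9 encodes a GTP-binding protein of the septin cytoskeleton. Its 7 start positions varied widely within the pair, with 23.8, 52.2 and 63.8% in CAST/EiJ and 38.8, 42.6 and 68.6% in PWK/PhJ, but stayed above the 0 to 18.4% of the other samples. Over the 43 positions of the whole Septin9 tile the spread was smaller, with CAST/EiJ at 34.3% ± 3.96 (SD, n = 3), PWK/PhJ at 41.2% ± 2.76 (SD, n = 3) and the others between 1.08 and 15.7%. Ldhd, the mitochondrial D-lactate dehydrogenase, read 22.4, 38.6 and 46.8% in CAST/EiJ, 11.3, 12.4 and 16.2% in PWK/PhJ and 0 to 4.71% in the others over 8 positions.

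The start of 1700102P08Rik showed the opposite direction. Its 5 positions read 14.0, 30.2 and 39.3% in CAST/EiJ, 18.8, 20.3 and 37.4% in PWK/PhJ, and 47.7 to 82.2% in the other samples, with a median of 64.2%. This start lies on the same chromosome as Iho1, and the 2 tiles, chr9:108392001-108393000 and chr9:108431001-108432000, formed 1 of the 3 groups of nearby shared tiles that held both directions. Enpp7, an alkaline sphingomyelinase of bile and gut, was also less methylated in the pair, at 31.0 to 49.6% over 7 positions of its start window against 60.9 to 85.2%.

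**Figure D1:**
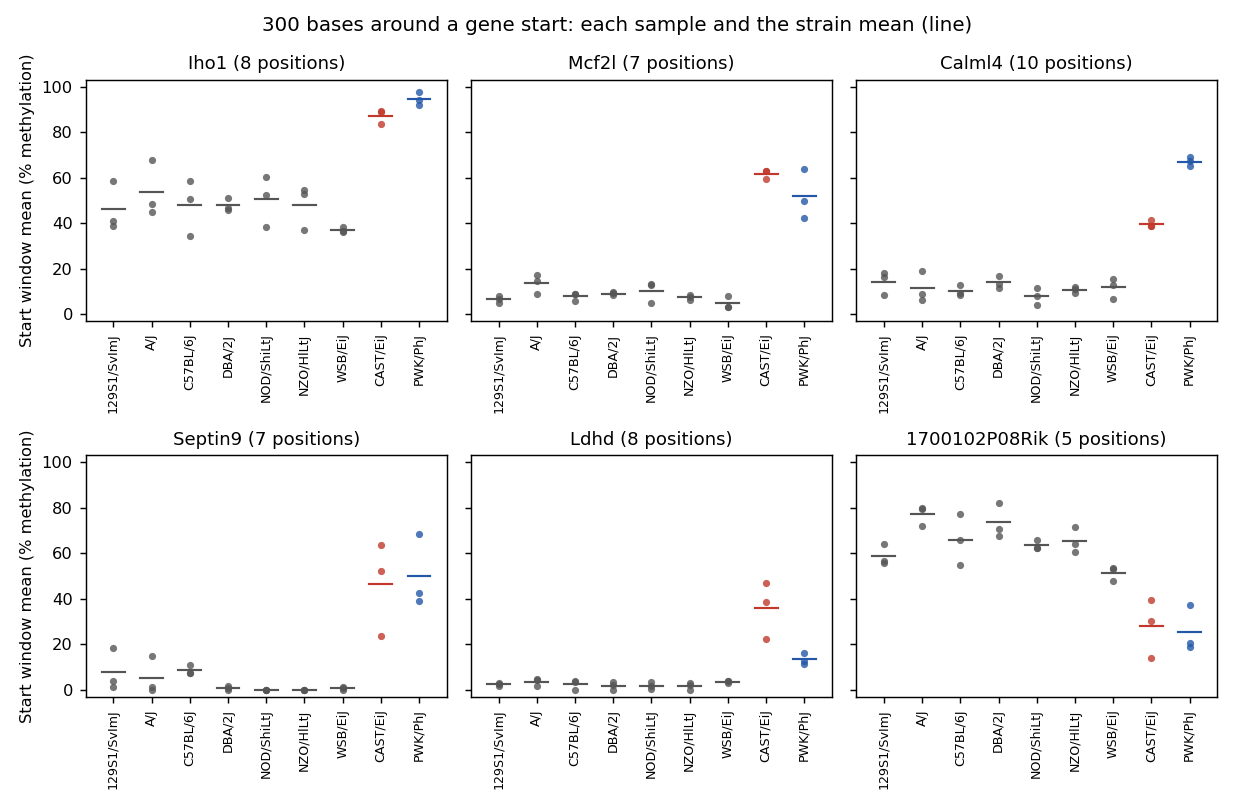
Mean percent methylation over the listed positions within 250 bases upstream and 50 downstream of 6 gene starts (y axis), for each of the 27 samples by strain (x axis); lines are strain means of 3 samples. In 5 genes all 6 samples of CAST/EiJ and PWK/PhJ lie above the other 21, and in 1700102P08Rik all 6 lie below. The 6 starts were chosen after their values were seen, which favours this. Over all tested tiles, as tile means, 1.25% showed no overlap.

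At some of the named starts the window held few or no listed positions, or the samples overlapped there. Zfp971, a zinc finger gene, had no listed position within the window, yet its tile of 16 positions averaged 23.5% ± 3.79 (SD, n = 3) for CAST/EiJ, 77.3% ± 1.09 (SD, n = 3) for PWK/PhJ and at most 5.89% in any other sample. The rule for shared positions was met at 9 of these 16. At the remaining positions the CAST/EiJ strain means were 0.957 to 2.38%, within the range of the 7 other strains. Mospd3, which encodes a membrane protein with a major sperm protein domain, had 1 listed position in its window, at 0 to 10% in the pair and 0 to 8.33% elsewhere. Its tile, which also overlaps the pseudogene Gm7285, read 29.7% ± 2.29 (SD, n = 3) and 28.9% ± 2.05 (SD, n = 3) against at most 4.79%. Bfar, a ubiquitin ligase of the endoplasmic reticulum, likewise read a median of 0% in its window in the pair and 19.9 and 20.9% as strain means over its tile. At each of the 6 CpGs of this tile that were read on both strands, 1 base held 39.4 to 46.5% in the strain means of the pair and the adjacent base 0 to 3.13%, and the cause was not tested. Commd1, which takes part in copper handling, was the start with the most listed positions. Its 21 window positions read 7.29 to 9.17% in the pair and 0 to 2.13% in the others, without overlap. These means rest on 4 positions with strain means of 30.5 to 48.6% in the pair, while the other 17 read 0 to 3.04% there. Ccdc30 and Lrrc14b had no listed position in their windows. The Ccdc30 tile of 20 positions, chr4:119359001-119360000, read 19.6 to 27.1% in the pair and 0.263 to 3.35% in the others, and the tile of 12 positions at Lrrc14b, chr13:74363001-74364000, 90.3 to 94.5% and 50.6 to 83.1%. At Krtcap3 the samples overlapped, with 67.5 to 89.7% in the pair and 11.8 to 69.4% in the others. Shroom3, an actin-binding protein of epithelial shape, overlapped in its window, at 70.0 to 88.0% against 0 to 77.0%, although its whole tile did not. The Shroom3 tile was no longer shared without DBA/2J replicate 4, when its gap fell from 12.3 to 5.92 points, and over strain means limma's moderated test did not call it (adjusted p = 0.171).

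Of the 45604 tested tiles, 406 were shared, 0.89% of them. In 281 tiles (0.616%) the pair was more methylated than all 7 strains and in 125 (0.274%) it was less methylated. Each strain on its own differed from the mean of the 7 at 6695 tiles for CAST/EiJ (14.7%) and 7492 for PWK/PhJ (16.4%), of which 4488 (9.84%) and 5494 (12%) were higher. Both were called in the same direction at 2412 tiles (5.29%), 1810 of them higher (3.97%), and in opposite directions at 393 (0.862%). These 2 contrasts share their 21 control samples, so the overlap of their calls is a count and no measure of likeness. The mean of the pair as a single contrast was called at 9156 tiles (20.1%). Both strain means lay beyond all 7 others in one direction at 6446 tiles (14.1%) when neither a gap nor a test was asked for. All 6 samples lay beyond all 21 at 570 tiles (1.25%), among them 212 of the 281 higher and 90 of the 125 lower shared tiles, which were chosen from the same values.

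With the strain as the unit, 2 strain means against 7, limma's moderated test called 940 tiles (2.06%), 703 higher (1.54%) and 237 lower (0.52%). Of the shared tiles, 262 of the 281 higher and 114 of the 125 lower ones were among them. Shared tiles were chosen on the distance between these same strain means, so this count gives no further support. Just inside the limit of 10 points lay tiles with gaps of 10.0032, 10.0075 and 10.0821 points, and just outside it tiles at 9.97887, 9.9591 and 9.92039 points. On single positions the same rule gave 3034 of 704331 (0.431%), 2152 higher (0.306%) and 882 lower (0.125%), and with an offset of 1 point in place of 5 the number of shared positions was 1690. Of the 3034 positions 1254 lay in shared tiles, 838 in other tested tiles and 942 in no tested tile. None in a shared tile went against the direction of that tile, but positions enter the mean of their tile, so this is no separate evidence.

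**Figure D2:**
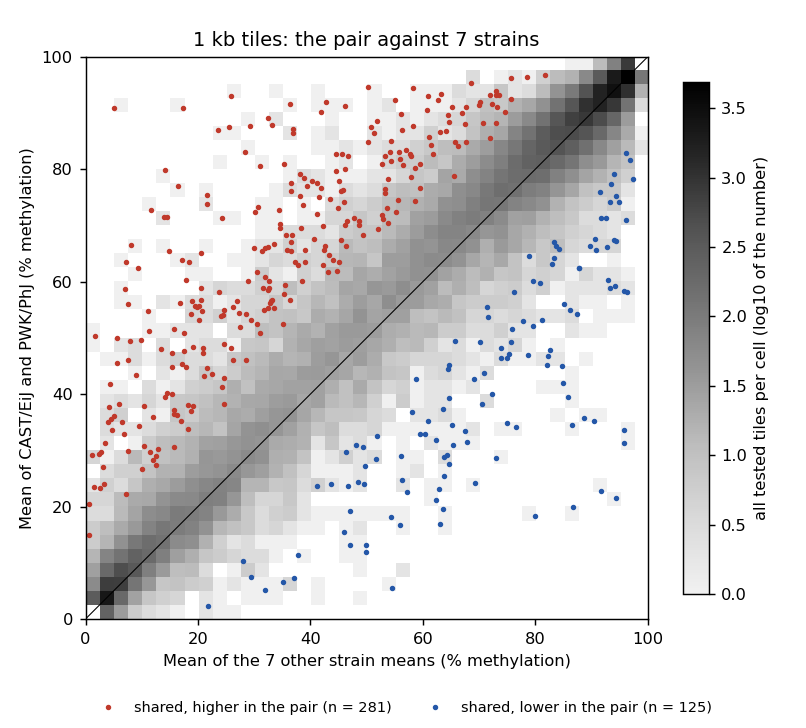
Mean methylation of the 45604 tested tiles, with the mean of the 7 other strain means on the x axis and the mean of CAST/EiJ and PWK/PhJ on the y axis; grey cells count tiles on a log10 scale, red and blue points are the 281 higher and 125 lower shared tiles, and the line marks equal levels. Higher shared tiles start mainly from intermediate and low levels of the 7 strains, and lower ones from intermediate and high levels.

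Shared tiles came from other parts of the methylation range than most tiles. Of the higher ones, 198 (70.5%) had a mean of the 7 strains between 20 and 80%, and of the lower ones 76 (60.8%), whereas 23.2% of all tested tiles lay there. The 7 strains had a median level of 33.1% at higher tiles, where the pair had 66.3%, and of 73.8% at lower tiles, where the pair had 39.5%. By construction no higher tile can start within 10 points of 100%, and no lower tile within 10 points of 0. The median difference between pair and others was 27.5 points at higher tiles and -27.1 points at lower tiles, beside 0.783 points over all tested tiles. A nearly full exchange of states was rare. In 2 tiles the 7 strains averaged under 20% and the pair over 80%, and in 1 tile the reverse held. Not one of the positions listed in all samples had all 6 samples at 80% or more with all 21 at 20% or less, but 11 had all 6 at 20% or less with all 21 at 80% or more.

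The 7 strains also varied more among themselves at these tiles. Their 7 means spanned a median of 13.8 points at higher tiles and 11.3 points at lower tiles, beside 6.24 points over all tested tiles. Tested tiles in general were less often of intermediate level, and the part of level in this spread was not tested. The strain nearest to the pair is the highest of the 7 at higher tiles and the lowest at lower ones. It was A/J at 79 of the 281 higher tiles and WSB/EiJ at 64. At lower tiles it was WSB/EiJ at 31 of 125, DBA/2J at 24 and A/J at 8. A/J also had the highest mean of the 7 over all positions, 28.3%. How often each strain is highest or lowest over all tested tiles was not counted, so these numbers show no likeness to the pair.

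Among the tiles with the widest gaps upward, the first was in Hrob, a factor of homologous recombination that loads the MCM8-MCM9 helicase. At chr11:102263001-102264000 the CAST/EiJ samples read 81.0, 88.9 and 100% and the PWK/PhJ samples 88.9, 90 and 96.7% over 6 positions. The other samples ranged from 0 to 18.3% with a median of 2.38%, and at each of the 6 positions all samples of the pair lay above all others. Among the 15 higher tiles with the widest gaps, this held at 1 of 7 positions at Iho1 and up to every position, as here. The choice by gap favours it, and the share over all positions is not given here. The nearest strain was WSB/EiJ at 9.596%, which left a gap of 80.4 points. The next tile was in Blm, the RecQ helicase whose loss causes Bloom syndrome in people. At chr7:80456001-80457000, over 7 positions, CAST/EiJ samples read 89.3, 93.5 and 93.9%, PWK/PhJ samples 81.8, 91.7 and 94.7%, and the others 8.57 to 34.8%. These were the 2 tiles in which a mean under 20% in the 7 strains faced a mean over 80% in the pair.

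Further down that order the pair was often at intermediate levels where the others were low. Rnf220, a ubiquitin ligase, read 63.8, 63.9 and 75.9% in CAST/EiJ and 50, 61.4 and 65.7% in PWK/PhJ at chr4:117342001-117343000, against 0 to 23.9% elsewhere. Creb3l2, a transcription factor released from the endoplasmic reticulum membrane, read 54.8 to 63.7% and 50 to 56.2% at chr6:37354001-37355000, against 2.84 to 15.4%. Ptprb, the receptor phosphatase of vascular endothelium, read 63.7 to 68.6% in CAST/EiJ and 75.3 to 83.3% in PWK/PhJ at chr10:116331001-116332000, against 3.90 to 27.4%. Ptprb is a gene of endothelial cells, and methylation of such cells in these samples was not tested, as 1 of 5 endothelial marker genes had listed positions near its start, at a mean of 4.17% in the pair and 2.73% in the others. Ankrd13b read 88.0 to 92.3% and 91.7 to 94.9% at chr11:77477001-77478000 against 21.5 to 45.7%, and Art3, of the ADP-ribosyltransferase family, 67.7 to 78.5% and 67.3 to 86.0% at chr5:92392001-92393000 against 3.03 to 39.1%. Fam169b at chr7:68318001-68319000 was the tile among these 15 with the tightest pair, at 93.3 to 94.3% in CAST/EiJ and 91.2 to 93.6% in PWK/PhJ, while the other samples covered 4.72 to 57.4%. The Ablim3 tile read 79.4 to 100% in the pair and 10.7 to 49% in the others. Groups did not overlap at any of the 15 higher tiles with the widest gaps. Over all tested tiles 1.25% showed no overlap, and the choice by gap largely brings it about.

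Of those 15, 2 lay in no gene of the RefSeq table and 3 in genes for long noncoding RNAs alone. The tile chr2:172302001-172303000, 43070 bp from Fam210b, read 65.9 to 75.6% in CAST/EiJ and 66.0 to 75.8% in PWK/PhJ, against 5.45 to 21.6%. In Gm41485, a long noncoding RNA, chr16:87610001-87611000 read 66.7 to 74.1% and 51.9 to 68.1%, against 0 to 20.8%. In the long noncoding RNA 4930445N06Rik, chr15:88291001-88292000 read 49.1 to 61.9% in the pair and 7.22 to 15.7% in the others. In Gm34032, also a long noncoding RNA, chr16:31575001-31576000 read 75.9 to 84.4% in CAST/EiJ and 56.9 to 65.9% in PWK/PhJ, against 5.95 to 25.7%. The tile chr8:121513001-121514000, 17276 bp from 1700018B08Rik, read 56.8 to 70.8% in the pair and 5.18 to 30% elsewhere.

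The tile lowest in the pair relative to the others lay outside genes, 4884 bp from Pdlim1, a PDZ and LIM domain adaptor of the actin cytoskeleton. At chr19:40276001-40277000 the CAST/EiJ samples read 17.1, 26.2 and 27.4% and the PWK/PhJ samples 15.2, 18.7 and 24.2% over 15 positions. The other 21 samples read 86.9 to 100%, with a median of 94.8%. At all 15 positions every sample of the pair lay below every other sample, and the gap was 68.1 points. Among the 15 lower tiles with the widest gaps, this held at 2 of 11 positions at Tunar and up to every position, as here. The choice by gap again favours it. Snx9, a sorting nexin of endocytosis, followed at chr17:5854001-5855000, with 17.1, 18.2 and 19.2% in CAST/EiJ, 23.0, 29.5 and 30.0% in PWK/PhJ and 85.3 to 99.1% elsewhere. Here 6 of 7 positions met the rule for shared positions. The last position of the tile had strain means of 75.4% in CAST/EiJ and 98.2% in PWK/PhJ, against 93.1 to 100% in the other strains.

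**Figure D3:**
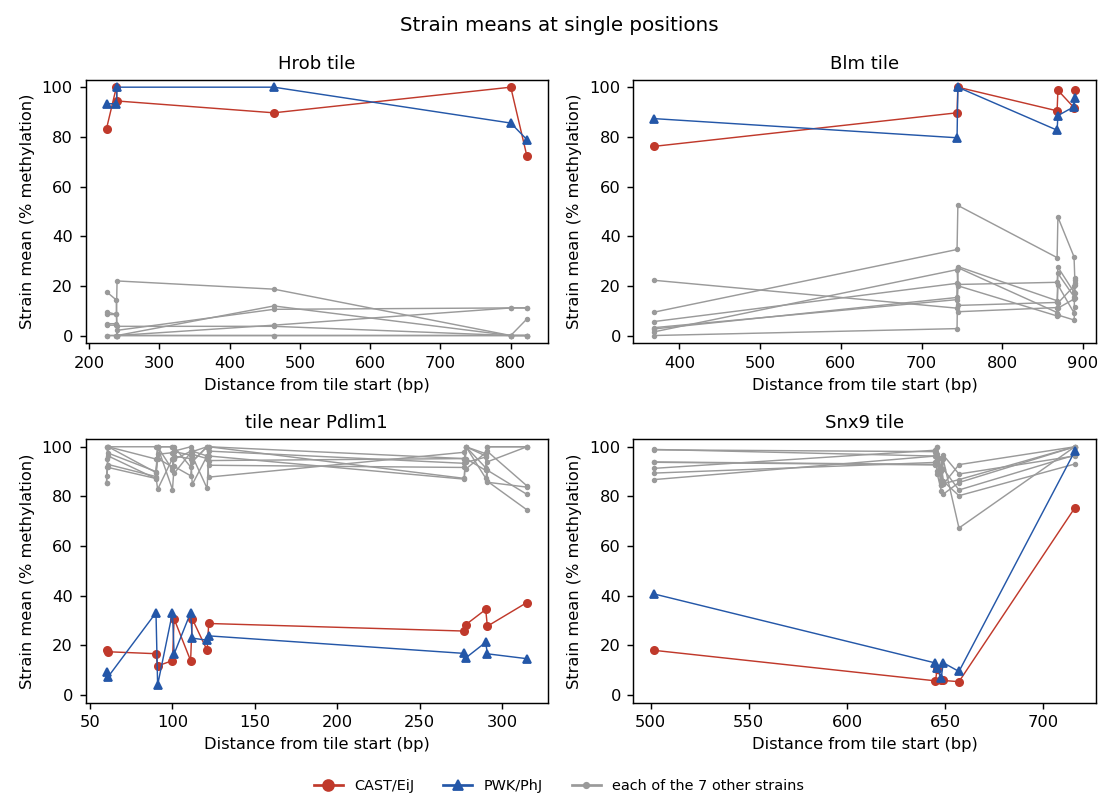
Strain means of percent methylation (y axis) at each position listed in all samples, by distance from the start of the tile in bp (x axis), in the Hrob, Blm, near-Pdlim1 and Snx9 tiles; each line is 1 strain of 3 samples. The lines of CAST/EiJ and PWK/PhJ run apart from all 7 others at every position, other than the last of the Snx9 tile. These tiles have the widest gaps of each direction, which favours this.

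A tile 1310 bp from Prlr, the prolactin receptor, in the long noncoding RNA Gm41269, read 30.6, 33.7 and 37.7% in CAST/EiJ and 19.03, 40.1 and 40.8% in PWK/PhJ at chr15:10350001-10351000, against 88.0 to 100%. Pxt1, a testis-enriched peroxisomal protein, read 19 to 30.9% and 26.4 to 43.2% at chr17:28940001-28941000 against 90.1 to 100%. In Nsf, the ATPase of vesicle fusion, replicates were wide, at 25.2, 33.6 and 49.6% in CAST/EiJ and 25, 30 and 50.6% in PWK/PhJ at chr11:103872001-103873000, and the others ranged from 56.9 to 100%. A tile 7495 bp from Chmp4c, a subunit of the ESCRT-III complex, was nearly unmethylated in the pair, at 3.47 to 4.70% in CAST/EiJ and 6.07 to 7.72% in PWK/PhJ at chr3:10398001-10399000, while the others held 33.7 to 70.7%. Psma7, an alpha subunit of the proteasome, read 50.9 to 60.0% and 58.2 to 62.2% at chr2:180037001-180038000 against 89.3 to 100%. In that tile 2 of 5 positions, adjacent bases, held the difference, with strain means of 0 to 3.70% in the pair, while the other 3 read 90.9 to 100% in the pair. The long noncoding RNA gene Tunar read 6.80 to 10.8% and 9.31 to 21.3% at chr12:105347001-105348000 against 40.3 to 56.9%. In Mmd2, of the progestin and adipoQ receptor family, the members of the pair stood apart from each other at chr5:142606001-142607000, with 47.1 to 55.9% in CAST/EiJ and 12.8 to 20.7% in PWK/PhJ against 80.6 to 98.0%. Rps6kl1 read 15.9 to 33.1% in the pair at chr12:85140001-85141000 and 50.7 to 73.6% in the others. A further 5 of the 15 lower tiles also lay in no protein-coding gene. In the pseudogene Gm7390, chr9:4977001-4978000 read 7.94 to 28.3% in the pair and 74.4 to 85.5% elsewhere, and chr5:138850001-138851000, 28769 bp from Gm5294, read 10.1 to 28.0% and 40.3 to 72.2%. In the long noncoding RNA Gm32575, chr19:56703001-56704000 read 41.1 to 54.2% in the pair against 74.7 to 92.3%. The tile chr7:52543001-52544000, far from any protein-coding gene, read 40 to 48% against 73.3 to 87.8%, and chr1:12995001-12996000, 2704 bp from Slco5a1, 53.4 to 65.3% against 88.0 to 97.7%. In the chromosome 7 tile 2 of 5 positions met the rule for shared positions, with strain means of 0 to 3.33% in the pair. Its positions 52543812 and 52543835 read 95.2 to 100% in the pair. None of the 15 lower tiles with the widest gaps showed overlap between groups, which the choice by gap again largely brings about. The RefSeq table gives gene spans without exons, so whether these tiles are exonic or intronic was not determined.

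**Figure D4:**
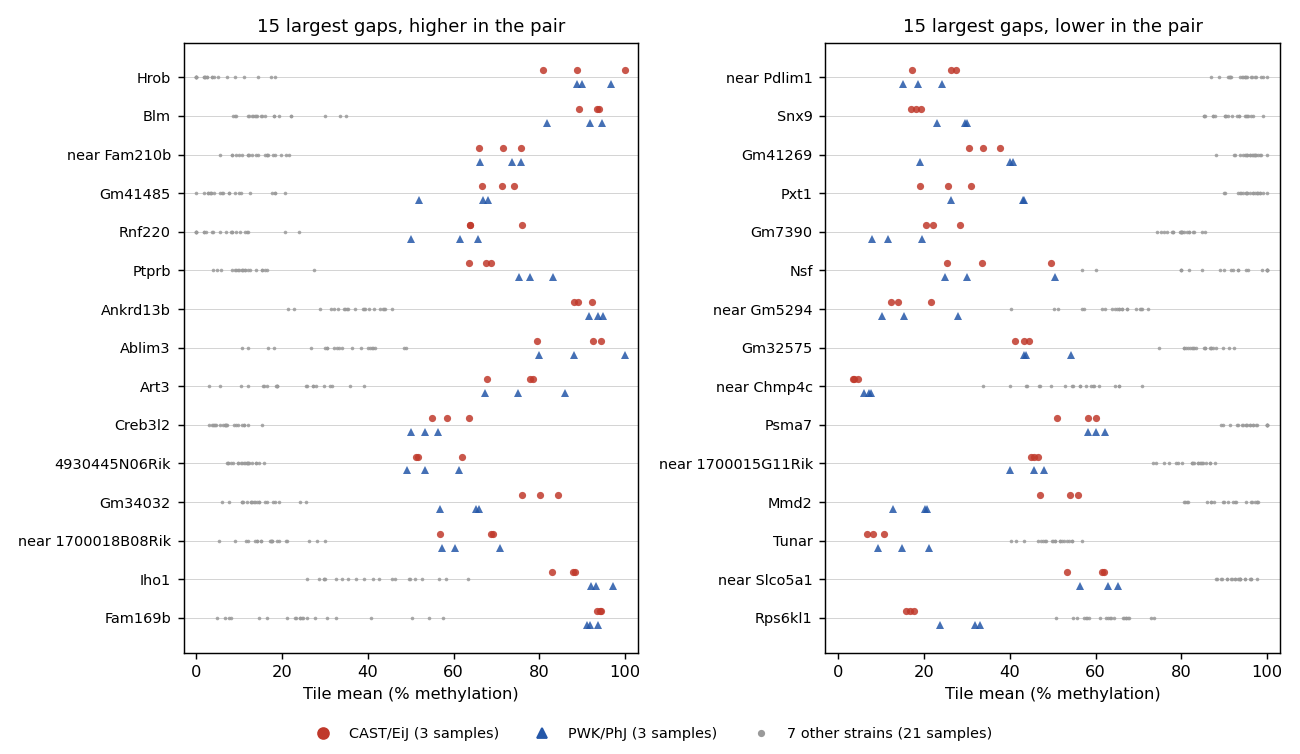
Tile means of percent methylation (x axis) in every sample, for the 15 higher (left) and 15 lower (right) shared tiles with the widest gaps, named by the overlapping or nearest gene; red circles are CAST/EiJ, blue triangles PWK/PhJ and grey points the 21 other samples. In each row the 6 samples of the pair stand apart from the 21, which the choice by gap favours. The widest space is at Hrob, 80.4 points between the nearest strain means, and near Pdlim1, 68.1 points.

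The differences were mostly present on both strands where both were read. In the higher tiles both bases of 830 of 1004 such CpGs (82.7%) differed by 10 points or more in the direction of the tile, and in the lower tiles those of 308 of 376 (81.9%). At 19 CpGs in 13 higher tiles and 3 CpGs in 3 lower tiles, 1 base differed by 20 points or more and the other by less than 5. The Bfar tile held 6 of these, with no CpG that differed on both strands, the Commd1 tile 2 of its 10 CpGs read on both strands, and the Slc10a1 tile 1 of 2. Of the 2152 higher shared positions, 1316 had exactly 1 directly adjacent base listed in all 27 samples, which is the same CpG on the opposite strand, and that base was higher in the pair at 1302 of them (98.9%) and by 10 points or more at 1253. Of the 882 lower shared positions 479 had such a neighbour, which was lower in the pair at 470 (98.1%) and by 10 points or more at 453. Over all tested positions the neighbour was higher in the pair at 58.4%. The 11 positions with a full exchange of states had 4 such neighbours, and all 4 were lower by 10 points or more. Adjacent bases may both have met the rule, so these counts describe the positions and are no test.

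Positions inside the shared tiles that were missing from some samples did not enter the tile means, and went the same way. With at least 2 of 3 samples per strain listing them, 366 such positions fell in 110 higher tiles, and the pair was above the others in 104 of these tiles (94.5%), by a median of 20.3 points. In lower tiles 106 positions fell in 41 tiles, and the pair was below in 37 (90.2%), with a median difference of -18.9 points. Over all 18051 tested tiles with such positions, the pair was above in 56.3% and below in 41.4%.

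Beside the tiles the difference was small at distances over 1 kb. At positions up to 1 kb from the edge of a higher tile, the pair was above the 7 strains by a median of 8.30 points, in the direction of the tile at 141 of 160 tiles. From 1 to 2 kb the median was 1.37 points, with 71 of 102 tiles in that direction. From 10 to 50 kb it was 0.825 points, with 225 of 279 tiles in that direction, beside a median of 0.783 points over all tested tiles, of which 65.4% were higher in the pair. These flanks average many more positions than a single tile does, so the 2 shares of direction are unlike measures and show no excess. Beside lower tiles the median up to 1 kb was -0.798 points, with 34 of 58 tiles below 0, and from 1 to 2 kb it was 0.395 points. Whether higher and lower tiles differ in this respect was not tested, and positions in a neighbouring shared tile were kept in these values.

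**Figure D5:**
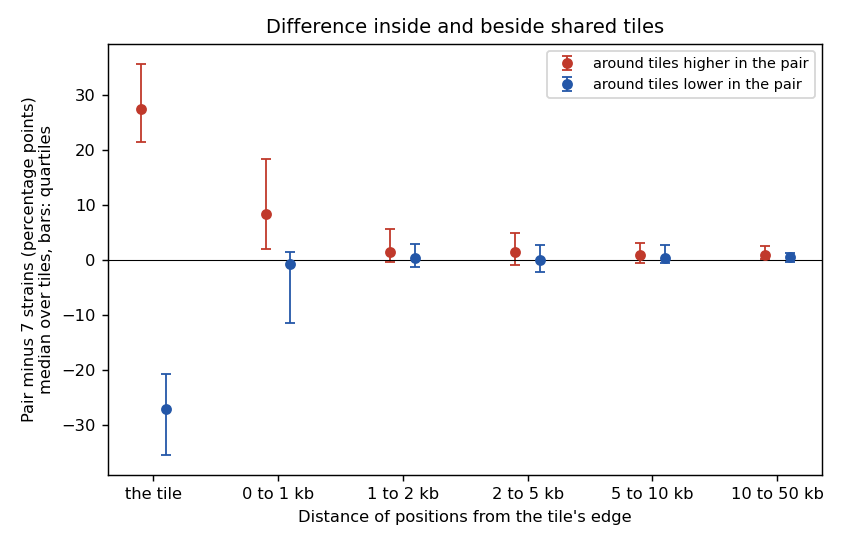
Difference between the mean of CAST/EiJ and PWK/PhJ and the mean of the 7 other strains, in percentage points (y axis), in the shared tiles and at positions outside them by distance from the tile edge (x axis); points are medians over tiles and bars the lower and upper quartiles. The median falls from 27.5 points inside higher tiles to 8.30 up to 1 kb and 1.37 from 1 to 2 kb away, and beside lower tiles it is already near 0.

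Of 101 tested tiles directly beside a shared tile, 22 (21.8%) were shared in the same direction and 0 in the opposite one, beside 0.89% of all tested tiles. Within 50 kb of each other lay 59 shared tiles in 27 groups, of which 24 held 1 direction. The largest had 3 tiles, and there were 5 of them. Lrrc20 carried 3 higher tiles between chr10:61487001 and 61573000, with CAST/EiJ at 62.2, 50.9 and 98.3% and PWK/PhJ at 80.2, 66.4 and 90.8%, although in the last of them the samples overlapped. Mcf2l carried a pair of higher tiles besides the one at its start, at 54.7 and 52.6% in CAST/EiJ and 75.4 and 50.4% in PWK/PhJ, where no other strain passed 25.1%. Necab2, a calcium-binding protein of neurons, had 3 higher tiles and Rps6kl1, a kinase-like protein, 3 lower ones. At Blm the higher tile had a lower one in the direction of Furin, a proprotein convertase. Between autosomes the share of tested tiles that were shared ran from 0.392% on chromosome 14 to 1.60% on chromosome 16. On the X chromosome 6 of the 7 shared tiles were lower in the pair, a count too small to set against the autosomes. On the Y chromosome 1 of 4 tested tiles was shared, lower in the pair and with samples that overlapped, although the samples are labelled as female. Without it 405 shared tiles remain, 124 of them lower.

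Tiles in or near genes of liver metabolism are named from lists chosen with earlier results of these data known. A shared tile was found at 1 of 14 hepatocyte transcription factors (7.14%), 1 of 20 nuclear receptors (5%), 2 of 33 cytochrome P450 genes (6.06%) and 1 of 17 genes of lipid synthesis (5.88%), beside 1.96% of the 11506 protein-coding genes with a tested tile. Of 14 hepatocyte transcription factors with a tested tile, Nr5a2 alone had a shared one. Nr5a2 is a nuclear receptor of bile acid and cholesterol metabolism, but it was counted with the transcription factors and not among the 20 nuclear receptors. Its tile chr1:136952001-136953000 read 19.3 to 27.4% in the pair and 33.5 to 61.9% in the others over 21 positions. Among the 20 nuclear receptors of that list Ppard, the fatty acid sensor PPAR delta, had 2 higher tiles. One read 75.5 to 93.7% in the pair against 31.0 to 63.7%, and in the other the samples overlapped, at 60.4 to 89.4% against 23.6 to 62.2%. Among 17 genes of lipid synthesis Acacb, the acetyl-CoA carboxylase whose product restrains fatty acid oxidation in mitochondria, had 2 adjoining higher tiles. At chr5:114175001-114176000 its CAST/EiJ samples read 22.9, 26.3 and 45.4%, its PWK/PhJ samples 38.1, 38.5 and 42.3%, and the others 0 to 10.9%.

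Of 33 cytochrome P450 genes with a tested tile, Cyp4f39 had a higher tile and Cyp2d22 a lower one, and in both the samples of the groups overlapped. Of 195 zinc finger genes 4, Zfp362, Zfp536, Zfp707 and Zfp971, had a higher tile and none a lower one. One imprinted gene of 30 had a shared tile 1006 bp away, Mest, which is expressed from the paternal copy, at 55.0 to 86.9% in the pair and 19.4 to 65.7% in the others. None of the 13 clock genes, 14 genes that write or erase DNA methylation, 8 MHC genes and 39 Hox genes with a tested tile had a shared one, nor had the 5 hepatocyte marker genes or the markers of Kupffer, endothelial, stellate, biliary and lymphoid cells. Of all 11506 protein-coding genes with a tested tile, 153 had a higher and 74 a lower shared one, and whether any list differs from this share was not tested. Slc10a1, the bile acid importer of hepatocytes, was on no list and was singled out after its values were seen: chr12:80958001-80959000 read 44.3 to 52.1% in the pair and 73.9 to 100% in the others.

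The place of the shared tiles relative to genes is given beside that of all tested tiles. A protein-coding gene was overlapped by 157 of the 281 higher tiles (55.9%) and 69 of the 125 lower ones (55.2%), beside 67.3% of all tested tiles. A start window was overlapped by 18 higher (6.64%) and 3 lower tiles (2.5%), beside 6.71%, with chromosome 18, for which no starts were given, left out. The starts used cover 17491 of 21896 protein-coding genes, and outside chromosome 18 they leave out 18.2%, so these shares, and the mean levels by distance from a start, rest on part of the starts.

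Within the shared tiles CAST/EiJ and PWK/PhJ still differed from each other at some. By limma's moderated test, adjusted over all tiles, they differed at 46 of the 281 higher tiles (16.4%) and 18 of the 125 lower ones (14.4%), whereas this contrast called 4271 of all tested tiles (9.37%). The shared tiles were more often of intermediate level than tested tiles in general, and the part of level in this share was not tested. CAST/EiJ was above PWK/PhJ at 27 of the 46 and at 10 of the 18. At Zfp971 CAST/EiJ was 53.9 points lower than PWK/PhJ, although both were far above the other strains.

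WSB/EiJ, the remaining wild-derived strain, was put in the place of either member under the same rule. CAST/EiJ with WSB/EiJ were set apart together at 54 tiles (0.118%), 23 higher (0.0504%) and 31 lower (0.068%), and PWK/PhJ with WSB/EiJ at 30 (0.0658%), 15 higher (0.0329%) and 15 lower (0.0329%), against 406 for CAST/EiJ with PWK/PhJ. In these counts the member left out stands among the 7 strains that must be passed, and the difference between the counts was not tested.

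Which positions a sample lists decided which positions and tiles entered, and the listing of the remaining positions of a tile did not enter its mean. In the shared tiles 188 of the 4780 positions listed in all 21 other samples were listed in none of the 6, 3.93% (95% Wilson interval 3.42 to 4.52%), beside 1.01% in the other tested tiles. At least 1 such position occurred in 74 shared tiles (18.2%) and in 6.55% of the others. The reverse, positions listed in all 6 and none of the 21, occurred in 66 shared tiles (16.3%) and 8.01% of the others. The interval treats positions as independent and covers counting error only, although positions of 1 tile share fragments. Tiles without any listing difference of a whole strain of the pair were 104 of the higher (37.0%) and 57 of the lower shared tiles (45.6%), beside 57.9% of all tested tiles. Their median gaps were 14.4 and 16.0 points, beside 15.7 and 15.03 points in the tiles that had one. Every shared tile had to pass the same smallest gap, which brings these medians together. Their likeness therefore does not show whether the size of a gap goes with listing, which was not tested. The gaps over 38.8 points all lay in tiles with a listing difference of a whole strain of the pair.

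Listed positions were also set against the reference letters of the start windows. There, 5 of 241842 positions listed in all 27 samples lay off a CpG of the reference. Per sample that share was 1.74 to 1.85% in CAST/EiJ, 1.74 to 1.77% in PWK/PhJ, 0.844 to 0.890% in WSB/EiJ, 0.633 to 0.756% in the other strains than C57BL/6J, and 0.196 to 0.263% in C57BL/6J. Of 1780 positions listed in all 6 samples of the pair and none of the 21, 1136 (63.8%) lay off a reference CpG, and of 1537 positions with the reverse listing, 0. The reverse listing and the listing in all 27 samples both include C57BL/6J, the strain of the reference, so counts near 0 follow from the choice of positions. Positions listed in the pair alone are by choice missing from C57BL/6J, which raises their share off a reference CpG. These windows do not hold the sequence of the tiles away from starts, and the part of sequence variants in the methylation differences was not tested.

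Over all positions listed in every sample, CAST/EiJ averaged 28.2% ± 0.0288 (SD, n = 3) and PWK/PhJ 28.5% ± 0.105 (SD, n = 3), while the 7 other strain means lay between 27.4 and 28.3%, and the pair exceeded the others by 0.684 points. As a mean of tile means the difference was 1.03 points, at an exact permutation p of 0.0278, not adjusted. For the mean over positions, an exact two-sided permutation test over the 36 ways to choose 2 of 9 strains gave p = 0.0556, with 0.0278 the smallest p this design allows. A/J, the highest of the 7, lay between CAST/EiJ and PWK/PhJ. Autosomal positions over 5 kb from a start, without chromosome 18, averaged 51.7% in the pair and 50.6% in the others, a difference of 1.11 points with the smallest possible p of 0.0278. Within 250 bp of a start the difference was 0.246 points (exact permutation p = 0.0556), and from there to 5 kb 0.585 points (exact permutation p = 0.0833). On the X chromosome it was -1.20 points (exact permutation p = 0.25). There CAST/EiJ averaged 42.8% and PWK/PhJ 45.4%, with the 7 other strain means between 44.1 and 46.9%, so that CAST/EiJ alone lay below them. With Benjamini-Hochberg adjustment over the 6 comparisons of means over positions, which leaves out the means of tile means, autosomal positions as a whole being the sixth, the adjusted p was 0.0833 for the 4 with the smallest p, 0.1 and 0.25 for the others, so that none passed 0.05.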

How the data were processed

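Percent methylation (0 to 100) per position was deposited by the authors, 1 list per sample and without read counts, so sequencing depth is unknown and levels carry no counting interval. Trim Galore 0.6.3, Bowtie2, Bismark 0.22 and the builds GRCm38 and mm10 are named in the submitters' processing notes. A coverage filter is not given in the sources used here. The lists of C57BL/6J name the mitochondrial chromosome otherwise than the rest, so a difference in processing cannot be told apart from that strain.

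Samples were grouped by labelled strain, as separate biological replicates; replicates of a strain correlated at r = 0.949 to 0.973 over positions, and no 2 lists were identical. Tile and position values were tested as log2((percent + 5)/(100 - percent + 5)) with strain as factor, by a moderated test computed in Python 3.11.15 (numpy 2.4.6, scipy 1.17.1, pandas 2.3.3). R 4.3.3 with limma 3.58.1 gave the same calls, 0 differing. Gene spans and starts came from RefSeq (GRCm38.p6). The text names the 15 shared tiles with the widest gap in each direction, shared tiles at protein-coding starts (the first 15 by gap), and tiles in the gene lists; other names were chosen after their values were seen. Members and lists were chosen with earlier results of these data known. Positions not listed in all samples, apart from the listing counts and the check inside shared tiles, were left out. Alternatives changed the offset, scale, filters, tile size, gap, replicate block, variance trend and samples.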

Additional observations from a re-analysis of the deposited data

Results flagged for a closer look

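At 7 of the 44 named tiles CAST/EiJ and PWK/PhJ stood on the same side of all 7 other strains and differed from each other by limma's moderated test, adjusted over all tested tiles. The same contrast called 9.37% of all tested tiles, 16.4% of the higher shared tiles and 14.4% of the lower ones. Differences are given as CAST/EiJ minus PWK/PhJ in percentage points, and n is 3 samples per strain. Zfp971 differed by -53.9 points (adjusted p = 1.06e-09), with each PWK/PhJ sample above each CAST/EiJ sample. The 7 other strains averaged 1.62% there, so the tile entered the test only through the level of the pair. Mmd2, a membrane protein of the progestin and adipoQ receptor family, differed by 34.4 points (adjusted p = 0.00340) at chr5:142606001-142607000. Its CAST/EiJ samples read 47.1 to 55.9% and its PWK/PhJ samples 12.8 to 20.7%, below the 80.6 to 98.0% of the others. Calml4 differed by -23.5 points (adjusted p = 0.00220). The tile in the long noncoding RNA Gm34032 at chr16:31575001-31576000 differed by 17.5 points (adjusted p = 0.00766), Ldhd by 14.4 points (adjusted p = 0.0315), Rps6kl1 at chr12:85140001-85141000 by -12.8 points (adjusted p = 0.0181), and the pseudogene Gm7390 at chr9:4977001-4978000 by 10.6 points (adjusted p = 0.0197). In 6 of the 7 tiles the 3 samples of one strain lay above the 3 of the other, and at Ldhd the samples overlapped, with 16.9, 34.0 and 40.6% in CAST/EiJ and 11.6, 16.3 and 20.5% in PWK/PhJ over the tile.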

How the results depend on the processing

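The 406 shared tiles became 63 with a gap of 25 points, 906 with 5 points, 697 with at least 3 positions per tile (0.897% of 77688 tested), 141 with at least 10 (0.797% of 17682) and 245 with both strands of a CpG averaged (0.837% of 29255). The number of tiles tested changed with the last 3 settings. The 3034 shared positions became 1690 with an offset of 1 point, 1325 with a gap of 25 points and 1629 when all 6 samples had to lie beyond all 21 instead. The tiles set apart with WSB/EiJ fell to 2 for CAST/EiJ and 3 for PWK/PhJ with a gap of 25 points. As a mean of tile means, the pair exceeded the others by 1.03 points over all positions and 1.07 over autosomes, each at the smallest exact permutation p of 0.0278, not adjusted. When listing in 18 of the 21 samples was enough, 223 positions of shared tiles were listed in none of the 6. Their number was 4.67% of the number listed in all 21, a set that does not hold all of them. By the same measure the other tested tiles had 1.58%, up from 1.01%. Same-numbered samples did not deviate together (r = -0.0416 to 0.0376 over 76 pairs), so replicate numbers do not pair the samples; with the number as a replicate block, shared tiles were 375, shared positions 1827 and tiles called over strain means 957.

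Leaving out each sample in turn gave 385 to 410 shared tiles, 2206 to 3097 shared positions, 772 to 1093 tiles over strain means, and 44 to 66 shared tiles in which the pair's strains differed from each other. Mean differences then ran from 0.653 to 0.699 points over all positions, 0.701 to 0.744 over autosomes and -1.33 to -1.07 on X. Without C57BL/6J 465 tiles were shared. Without WSB/EiJ they were 502 and without A/J 486, both chosen after seeing the data. The 44 named tiles were refitted with the other offset and scale, the variance trend, the replicate block, without C57BL/6J and without each sample in turn, and 1407 of these 1408 values kept direction and call; the Shroom3 tile lost its gap without DBA/2J replicate 4. Of the 44, 32 have a gap of 25 points or more and 18 have 10 positions or more, so the others are no shared tiles under those limits. Of 320 other values 306 stayed within the limits. Shared tiles were 65.0 to 76.6% higher ones throughout. Levels rest on lists without coverage, which limits what a single position shows.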
